A study of Mus musculus with 4 samples.

Results

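Genes that fibroblast growth factor (FGF) signaling switches on were compared between E12.5 SMGs and SG placodes derived from PSCs (pluripotent stem cells). Some of these genes encode inhibitors that dampen the signaling in turn. The set held 10 genes, taken by symbol from 24771 features with a deposited value: the Sprouty genes Spry1, Spry2 and Spry4, the Spred genes Spred1 and Spred2, the phosphatase gene Dusp6, Il17rd, and the PEA3 group of ETS transcription factors, Etv1, Etv4 and Etv5. All 10 had 1 row in the file and passed the minimum of a mean FPKM of at least 1 (fragments mapped to a gene, scaled to its length and to all mapped fragments). The placodes (2 samples, day 10) came from 1 mouse embryonic stem cell line, 129w2. Aggregates begun with 3000 cells per well had 2% Matrigel, low in growth factors, from day 1. They received 2 ng/ml BMP4 on day 3, 25 ng/ml bFGF plus 1 μM retinoic acid (RA) on day 4, and 200 ng/ml FGF10 from day 6 on. The SMGs (2 samples) were submandibular glands of mouse embryos at E12.5, whose strain and dissection are not given in the sources used here. No placodes without FGF10 were among these samples, so FGF10 and the other differences between culture and gland cannot be told apart. No batch or date was given either, and a batch and the groups cannot be told apart.

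An FGF ligand that binds its receptor activates RAS and, through a chain of kinases, ERK. Active ERK leads to transcription of the PEA3 factors and of feedback inhibitors: Sprouty and Spred proteins act at the level of RAS and RAF, Dusp6 removes the activating phosphates from ERK, and Il17rd, also known as Sef, is a membrane protein that restrains the pathway. In the embryonic salivary gland, FGF10 from the mesenchyme acts on FGFR2b of the epithelium, and the gland does not form without it.

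The cell types differed between the groups as well, and their part in the results below was not tested. Markers are counted as lower or higher in the placodes at an adjusted p below 0.05 by limma. By that rule 40.4% of all tested features were lower and 35.7% higher. Of 10 epithelial markers, 5 reached 1 FPKM in each placode sample and 10 in each SMG sample, 7 were lower and 1 higher, and the summed FPKM was 73.4 to 80.2 in the placodes and 604 to 635 in the SMGs. Krt5, Krt14 and Krt15 were listed at 0 in both placode samples. Trp63, a regulator of stratified epithelia, was near 0 there (0.0287 and 0.0262), and Pitx1, a marker of oral ectoderm, was at 0.539 and 0.429. Cdh1 and Epcam, adhesion genes of epithelia, were also lower, at 1.11 and 1.18 against 28.2 and 24.7 and at 1.75 and 2.69 against 87.2 and 78.8. Keratin genes of simple epithelia were present in the placodes. Krt19, a keratin of ducts, was the marker that was higher there, at 14.7 and 15.8 against 9.78 and 6.53 (log2 fold change 0.85, adjusted p = 3.63e-03 by limma). Krt8 (34.4 and 35.6 against 36.1 and 28.3) and Krt18 (20.8 and 24.5 against 20.04 and 15.4) did not pass the test. All 10 mesenchyme markers were lower, with sums of 218 to 221 against 2092 to 2140. The 10 markers of neural progenitors and neurons were all higher, with sums of 1223 to 1267 against 109 to 120. Endothelial markers summed to 9.32 to 9.75 in the placodes and 118 to 124 in the SMGs, and leukocyte markers to 1.68 to 2.09 against 13.5 to 15.7. Most of these placode sums came from 1 gene each, Cdh5 (8.07 and 7.60) and Csf1r (1.68 and 1.99). Erythroid markers, at 2931 to 2945 in the SMGs, summed to 0 and 0.182 in the placodes. Skeletal muscle markers summed to 10.5 to 10.6 in the placodes and 47.7 to 73.5 in the SMGs, and markers of nerve and Schwann precursors to 21.9 to 24.3 against 39.9 to 41.8. Nearly all of the muscle sum in placodes was Mylpf, at 10.3 and 10.4 against 20.2 and 10.3, which did not pass the test, and Myog and Myf5 were listed at 0 in these samples. The largest part of the nerve sum in placodes was Ret, which was higher there, at 13.1 and 12.7 against 7.31 and 7.15. Markers of pluripotent cells summed to 20.8 to 21.8 against 0.211 to 0.314, and nearly all of the placode sum came from Esrrb. The single genes of these marker lists were named after their values were seen.

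**Figure D1:**
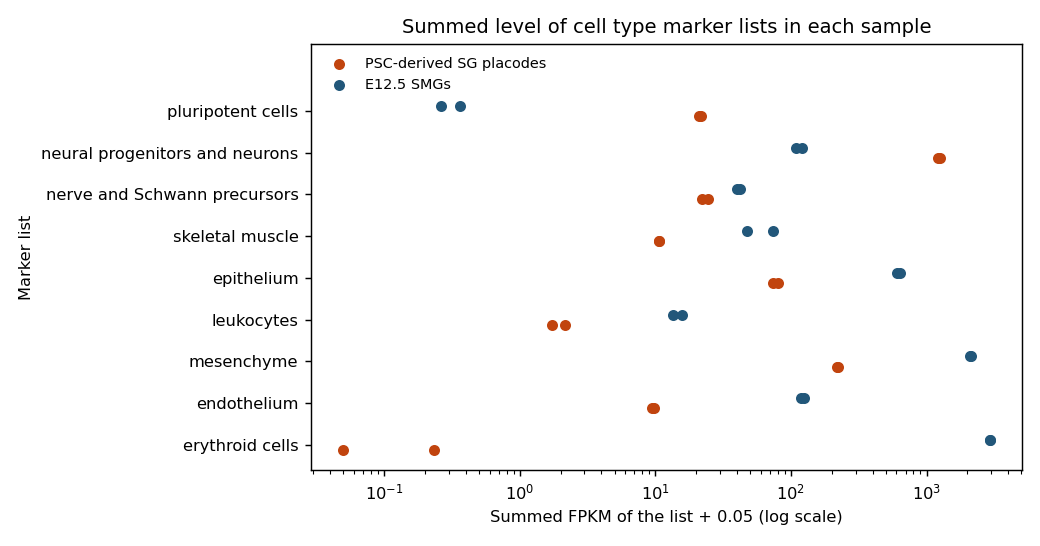
Summed FPKM of each cell type marker list (y axis) in each sample, plus 0.05 on a log scale (x axis), with a point for each of the 4 samples. Neural markers lie at 1223 and 1267 in placodes and at 109 and 120 in SMGs, and epithelial, mesenchymal, endothelial and erythroid sums are lower in the placodes.

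Of the 10 genes, 9 were lower in the placodes at an adjusted p below 0.05 (limma, Benjamini-Hochberg over 13193 tested features), and 0 were higher, also at an unadjusted p below 0.05. Over all tested features, 40.4% were lower and 35.7% higher by the same rule. Lower by at least 2-fold were 6 genes, namely Spry1, Spry2, Spry4, Dusp6, Etv4 and Etv5, against 15.2% of all tested features. Spry4, with a placode mean of 0.736, passed the minimum FPKM only through the SMGs and could only come out lower. The FPKM of the groups did not overlap for 10 of the 10 genes, which was also so for 88.4% of all tested features. The median log2 fold change of the 10 genes, on the scale of log2(FPKM + 1) and as placodes minus SMGs, was -1.63, and that of all tested features was -0.05. In bulk samples, fewer cells that express a gene and less RNA per cell cannot be told apart.

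**Figure D2:**
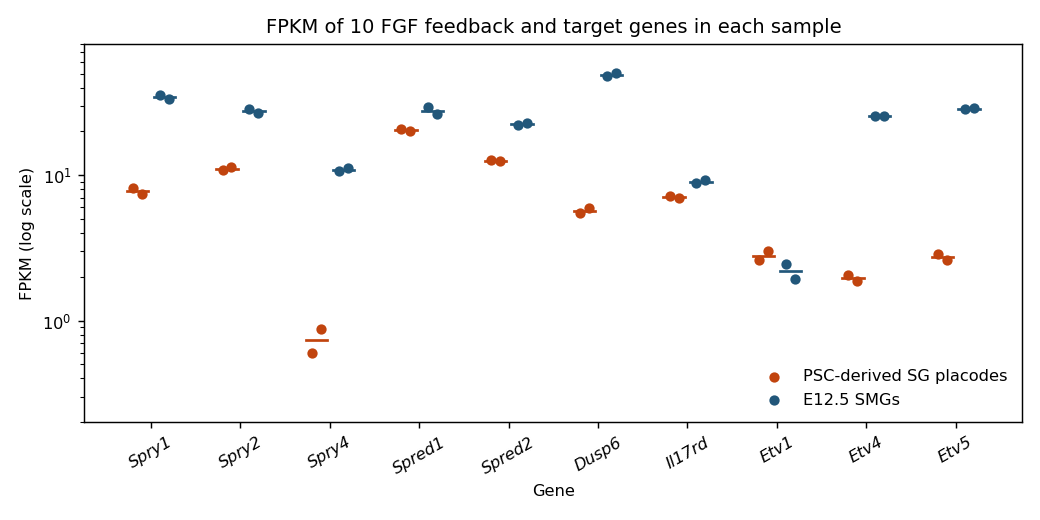
FPKM of each of the 10 genes (x axis) on a log scale (y axis), with a point for each sample and a bar at the mean of the 2 samples of a group. Dusp6 is the highest gene in the SMGs at 48.3 and 50.2, and in the placodes it lies at 5.46 and 5.96, below Spred1, Spred2, Spry2, Spry1 and Il17rd.

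The PEA3 factors Etv4 and Etv5, which are expressed in epithelial buds under FGF control in several organs, were among the genes furthest apart. Etv4 (ENSMUSG00000017724, chromosome 11 of GRCm38 from 101769742 to 101785371) was at 2.04 and 1.88 in placodes and at 25.7 and 25.5 in SMGs. The means were 1.96 ± 0.117 and 25.6 ± 0.137 (SD, n = 2 each), 13.1-fold higher in the SMGs, and the change was -3.17 on the log2 scale (adjusted p = 5.42e-07 by limma, standard error 0.08). Only 1.38% of the tested features had a lower log2 fold change than Etv4. Etv5 (ENSMUSG00000013089, chromosome 16 from 22381309 to 22439719) was at 2.89 and 2.60 in placodes, against 28.6 and 28.8, so that both placode samples lay far below both SMG samples. Its mean was 10.5-fold higher in the SMGs (log2 fold change -2.99, standard error 0.08, adjusted p = 6.09e-07 by limma).

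Etv1, the remaining PEA3 factor, did not pass the test. It lies on chromosome 12 from 38779380 to 38870484 (ENSMUSG00000004151), and its FPKM was 2.60 and 2.99 in placodes and 2.44 and 1.94 in SMGs. The placode values were slightly above the SMG values, with a log2 fold change of 0.25 (95% interval -0.06 to 0.56, adjusted p = 0.112 by limma). Of the summed FPKM of Etv1, Etv4 and Etv5, Etv1 made up 34.5% and 40.1% in placodes and 4.30% and 3.45% in SMGs. Etv5 held the largest share in both SMG samples, at 50.4% and 51.2%, whereas in the placodes Etv5 led in sample 1 (38.3%) and Etv1 in sample 2. The sum itself was 7.53 and 7.47 in placodes and 56.8 and 56.2 in SMGs. With 2 samples a group, the smallest p of an exact permutation test is 0.333, so shares within a sample are given without a test.

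**Figure D3:**
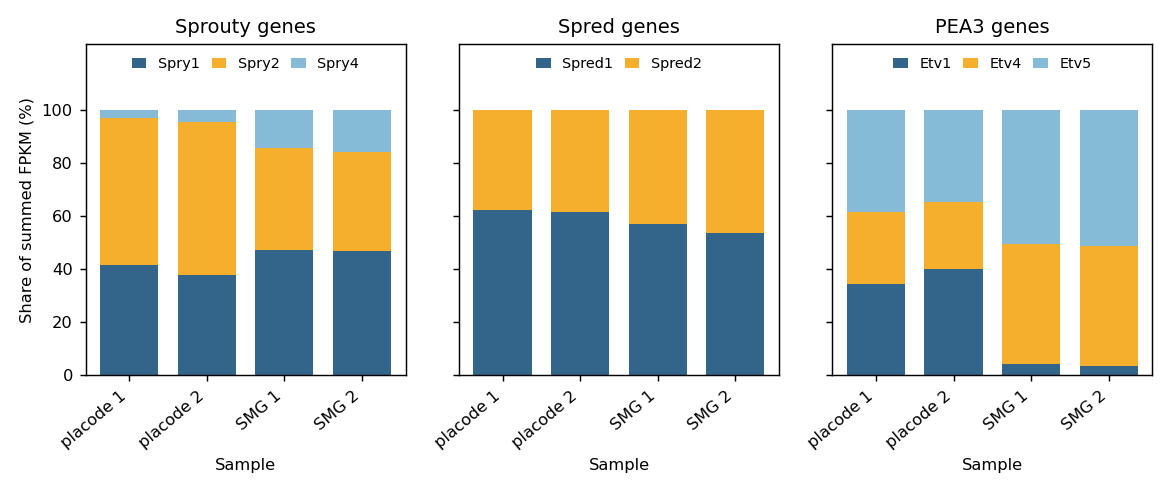
Share of each gene in the summed FPKM of the genes of its family within the set (y axis, percent) in each sample (x axis), for the Sprouty, Spred and PEA3 genes. Spred3 is not included. Etv1 fills 34.5% and 40.1% of the PEA3 bar in placodes and 4.30% and 3.45% in SMGs, and Spry4 fills 3.05% and 4.46% of the Sprouty bar against 14.3% and 15.6%.

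All 3 Sprouty genes, which encode inhibitors of RAS-ERK signaling downstream of receptor tyrosine kinases, were lower in placodes by 2-fold or more, and to different degrees. Spry4 (ENSMUSG00000024427, chromosome 18 from 38586247 to 38601415) was at 0.597 and 0.875 in placodes and at 10.7 and 11.1 in SMGs. With 14.9-fold between the means, it had the largest ratio of the 10 genes, although its change on the log2 scale, -2.79 (adjusted p = 3.61e-06 by limma, standard error 0.11), was reduced by the pseudocount of 1, and at a pseudocount of 0.001 it was -3.92. Spry1 (ENSMUSG00000037211, chromosome 3 from 37639947 to 37644598) measured 8.16 and 7.41 in placodes, against 35.7 and 33.4. Its log2 fold change was -2.02 (standard error 0.07, adjusted p = 2.03e-06 by limma), and 710 of its 2906 exonic bases are shared with Gm42922, an annotated transcript on the opposite strand, and without a stated strand setting the reads of both cannot be told apart. Spry2 (ENSMUSG00000022114, chromosome 14 from 105891947 to 105896819) was the least changed Sprouty gene. It had 10.8 and 11.3 in placodes and 28.8 and 26.8 in SMGs, and the difference was -1.25 on the log2 scale (adjusted p = 9.60e-06 by limma, standard error 0.07). Spry2 was the leading Sprouty gene in the placodes, with 55.3% and 57.8% of the family sum, and Spry1 led in the SMGs with 47.5% and 46.9%. The summed FPKM of the 3 genes was 19.6 in each placode sample and 75.2 and 71.3 in SMGs.

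The Spred genes and Il17rd showed the smallest differences among the genes that passed the test, all under 2-fold. Spred1, whose product recruits the RAS inhibitor neurofibromin to the membrane, measured 20.9 and 20.02 in placodes and 29.5 and 26.2 in SMGs (ENSMUSG00000027351, chromosome 2 from 117121374 to 117182279). Its log2 fold change was -0.43 (standard error 0.07, adjusted p = 1.93e-03 by limma). Spred2, a relative of Spred1 with the same role, was at 12.7 and 12.55 against 22.3 and 22.8 (ENSMUSG00000045671, chromosome 11 from 19924375 to 20024026), which is -0.79 on the log2 scale (adjusted p = 3.97e-05 by limma, standard error 0.06). Spred1 and Spred2 thus stayed within 1.78-fold between the group means, and Spred1 was the more abundant of them in all 4 samples, with 53.5% to 62.2% of their sum. Spred3, which was not in the set or in that sum, was higher in the placodes. It was at 5.54 and 7.18 against 4.36 and 3.90 (log2 fold change 0.51, adjusted p = 0.0118 by limma). Il17rd (ENSMUSG00000040717, chromosome 14 from 27038941 to 27107286) measured 7.19 and 6.96 in placodes and 8.83 and 9.22 in SMGs, which lay above both placode values. Its log2 fold change was -0.31 (95% interval -0.50 to -0.12, adjusted p = 0.0100 by limma). The call was lost without SMG sample 2 (adjusted p = 0.0589 by limma) and without placode sample 2 (adjusted p = 0.0583 by limma).

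Dusp6, the cytoplasmic phosphatase that is selective for ERK and widely used as a readout of FGF activity in embryos, was the most abundant of the 10 genes in the SMGs. Its FPKM was 48.3 and 50.2 there and 5.46 and 5.96 in placodes (ENSMUSG00000019960, chromosome 10 from 99263231 to 99267489). The means were 49.2 ± 1.38 and 5.71 ± 0.357 (SD, n = 2 each), 8.63-fold higher in the SMGs, or -2.91 on the log2 scale (adjusted p = 4.39e-07 by limma, standard error 0.07), and 1.92% of the tested features had a lower log2 fold change.

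**Figure D4:**
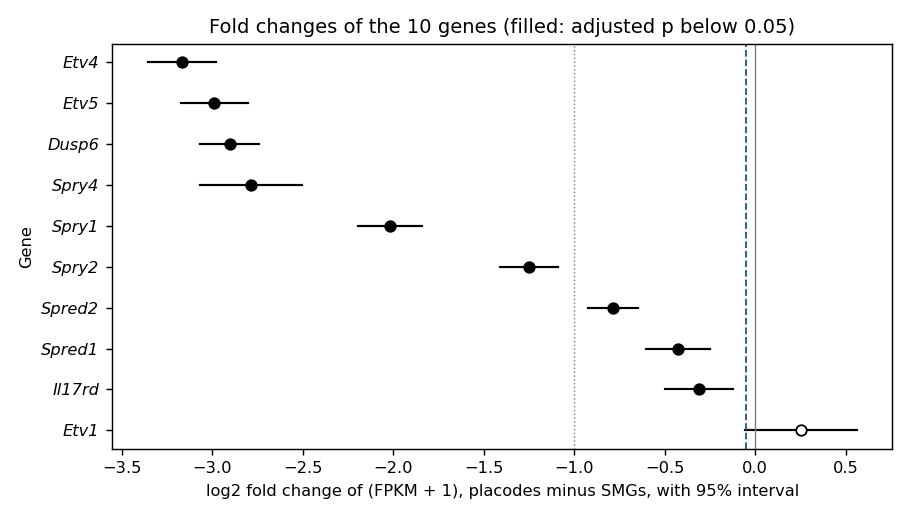
Log2 fold change of each of the 10 genes (x axis, placodes minus SMGs on the scale of log2(FPKM + 1)) with its 95% interval; filled points passed an adjusted p of 0.05, the dashed line marks the median of all tested features at -0.05 and the dotted line a 2-fold decrease. Etv4, Etv5, Dusp6 and Spry4 lie between -3.17 and -2.79, Spred2, Spred1 and Il17rd between -0.79 and -0.31, and the interval of Etv1 includes 0.

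Promoter windows, from 250 bases before a RefSeq start to 50 after it (GRCm38.p6), were found for 8 of the 10 genes, in 10 windows. Etv4 and Spry4, both lower by at least 2-fold, had no window and were not searched. Each window was searched on both strands for CCGGAA, a core bound by many ETS factors, and for AGGAAG, the classical PEA3 site. It was also searched for TGAGTCA, an AP-1 site, and for the octamers TGAATGAA, TGAATGGA, TCAATGAA and TCAATGGA. These octamers are bound by Cic, a repressor that ERK signaling relieves. Matches of different motifs did not overlap in these windows. The Cic octamers occurred in 2 of the 10 windows, those of Dusp6 and Spry2, and in 3.84% of all 32851 windows. The windows of Spry1, Spred1, Spred2, Il17rd, Etv1 and Etv5 held no Cic octamer. Dusp6 had 2 such matches, which begin 24 bases before and 1 base after its start, and Spry2 had 1, 54 bases before its start. AGGAAG was found in 4 of the 10 windows (1 each of Spred2, Dusp6, Etv1 and Etv5) and in 35.4% of all windows. CCGGAA was found in the window of Spry2, beginning 33 bases after the start, and in 14.9% of all windows, while TGAGTCA was found in 0 of the 10 windows and in 5.20% of all. These matches are descriptions of the letters and not binding sites.

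The first 260 bases (250 before the start and 10 after it) of the windows of Dusp6, Spry2 and Etv1 are given as examples. They were picked after the values were seen, and Etv1 did not pass the test. The windows of Spry1 and Etv5, which were lower by at least 2-fold, held no Cic octamer either. A relation between octamers and the change in FPKM was not tested. The printed bases are chr10:99262981-99263240 on the plus strand, chr14:105896810-105897069 on the minus strand and chr12:38779832-38780091 on the plus strand. Capitals mark the matches, which read TCCATTGA in Dusp6 and TTCATTGA in Spry2 (Cic octamers on the opposite strand), CTTCCT in Dusp6 (AGGAAG on the opposite strand) and a pair of overlapping AGGAAG in Etv1, which begin 8 and 4 bases before its start.
Dusp6: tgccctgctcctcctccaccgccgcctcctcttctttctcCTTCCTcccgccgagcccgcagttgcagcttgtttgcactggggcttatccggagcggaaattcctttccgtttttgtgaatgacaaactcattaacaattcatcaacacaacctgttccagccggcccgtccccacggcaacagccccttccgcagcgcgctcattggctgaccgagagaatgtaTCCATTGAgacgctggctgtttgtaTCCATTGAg
Spry2: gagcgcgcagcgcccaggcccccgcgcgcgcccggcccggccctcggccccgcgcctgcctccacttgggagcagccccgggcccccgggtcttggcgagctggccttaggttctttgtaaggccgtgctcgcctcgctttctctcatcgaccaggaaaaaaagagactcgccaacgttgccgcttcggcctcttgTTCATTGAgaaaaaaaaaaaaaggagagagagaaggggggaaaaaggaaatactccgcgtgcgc
Etv1: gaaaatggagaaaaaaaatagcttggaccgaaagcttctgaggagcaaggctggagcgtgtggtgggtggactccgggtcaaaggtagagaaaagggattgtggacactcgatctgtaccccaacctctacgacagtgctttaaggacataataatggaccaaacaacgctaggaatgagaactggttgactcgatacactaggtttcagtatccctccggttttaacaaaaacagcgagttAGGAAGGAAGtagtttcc

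The order of the 10 genes by FPKM, a scale that accounts for transcript length, differed between the groups. In the SMGs, Dusp6 was followed by Spry1, Etv5, Spred1, Spry2, Etv4, Spred2, Spry4, Il17rd and Etv1. Etv5, Spred1 and Spry2, with means of 28.7, 27.9 and 27.8, did not differ beyond their spread there. In the placodes the order was Spred1, Spred2, Spry2, Spry1, Il17rd, Dusp6, Etv1, Etv5, Etv4 and Spry4. Only Etv1 and Etv5, with means of 2.80 and 2.74, overlapped among neighbours in that order. Relative to the tested features, Dusp6 stood above 90.3% of them in the SMGs and above 33.4% in the placodes, and Spry4 above 50.3% and 5.21%. Spred1 moved little on that scale, from 79.1% to 70.7%.

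The other genes of the pathway were taken from 6 lists, each read against the same 40.4% lower and 35.7% higher. Of 22 genes of the FGF family, listed as ligands, 9 were tested, of which 6 were lower and 3 higher in the placodes. Among the lower genes, Fgf1, Fgf2, Fgf7 and Fgf10 had placode means below 1 FPKM. They passed the minimum only through the SMGs and could only come out lower. Fgf10 itself measured 0.465 and 0.123 in placodes and 45.5 and 46.1 in SMGs. Fgf7, whose product also binds FGFR2b, was at 0.138 and 0.0451 against 5.98 and 8.23. The genes furthest in the other direction were Fgf11 (26.3 and 24.4 against 4.41 and 3.67) and Fgf13 (17.9 and 19.5 against 5.05 and 5.42). Fgf12, named after its values were seen, was the remaining higher gene (3.73 and 3.07 against 1.62 and 1.10). These higher genes, among those tested, encode intracellular FGF-homologous factors that are not secreted. That statement does not cover Fgf14 and Fgf15, which fell below the minimum mean and were not tested. Named after their values were seen, both were above 1 FPKM in each placode sample. Fgf14 was at 1.65 and 1.76 in placodes and 0.151 and 0.136 in SMGs, and Fgf15 at 1.11 and 1.39 against 0.0894 and 0.0223.

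Among receptors and their membrane partners, 8 of 10 genes were tested, with 5 lower and 3 higher. Fgfr3 was the furthest apart, at 39.6 and 42.9 in placodes and 1.89 and 1.77 in SMGs. Fgfr2, which encodes the receptor of FGF10 and was singled out after its values were seen, was higher in the placodes too, at 37.5 and 35.5 against 25.97 and 26.8. These values are given per gene, so FGFR2b cannot be told apart from FGFR2c. Flrt1 was higher, at 4.44 and 4.64 against 1.36 and 1.34. Flrt2 (log2 fold change -2.51) and Flrt3 (log2 fold change -1.17), which encode transmembrane proteins that associate with FGF receptors, were lower. The remaining lower genes, named after their values were seen, were receptor genes. Fgfr1 was at 31.2 and 34.6 in placodes and 65.9 and 62.9 in SMGs (log2 fold change -0.95). Fgfr4 and Fgfrl1 had log2 fold changes of -0.71 and -0.25.

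All 22 genes of the list for the relay from receptor to ERK were tested. Of these, 13 were higher, 4 lower and 5 did not pass the test. Their median log2 fold change was 0.32. The list also includes genes of negative regulators, of which Nf1 was higher, Cbl was lower and Rasa1 did not pass the test. Frs3 and Grb2, which encode adaptors, were 1.84 and 1.11 higher on the log2 scale, and the adaptor genes Shc1 and Gab1 had log2 fold changes of -2.28 and -1.09. Of 13 other phosphatase and feedback genes tested, 8 were higher and 3 lower. Dusp4, whose product is a nuclear ERK phosphatase, measured 120.6 and 118.8 in placodes and 6.03 and 4.33 in SMGs, opposite to Dusp6. Dusp8, which encodes a phosphatase with preference for stress-activated kinases, was at 48.3 and 47.1 against 1.07 and 0.986. Dusp7, the close relative of Dusp6, was lower with a log2 fold change of -1.22, and so was Dusp2 with -1.73.

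Of 13 immediate-early and early response genes tested, 10 were lower, 2 higher and 1 did not pass the test, with a median log2 fold change of -0.72. Fos was at 1.52 and 2.10 in placodes and 39.5 and 40.7 in SMGs, and Egr1 at 2.08 and 1.46 against 24.9 and 29.4. Ier3 went the other way, at 24.3 and 19.7 against 2.53 and 2.18, as did Fosl1 by 0.47 on the log2 scale. In the list of other ETS factors, to which Cic was added, 17 of 18 tested genes were lower in the placodes and 1, Elf2, was higher by 0.20 on the log2 scale. Of the lower genes, Ehf, Fli1, Elf5, Erg and Elf4 had placode means below 1 FPKM. They passed the minimum only through the SMGs and could only come out lower. Ehf, an epithelial ETS factor, was at 0 in each of the placodes, and at 12.8 and 13.4 in SMGs. Ets1 had a log2 fold change of -2.83. Cic differed little, at 38.6 and 37.7 against 42.8 and 44.4 (log2 fold change -0.19).

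**Figure D5:**
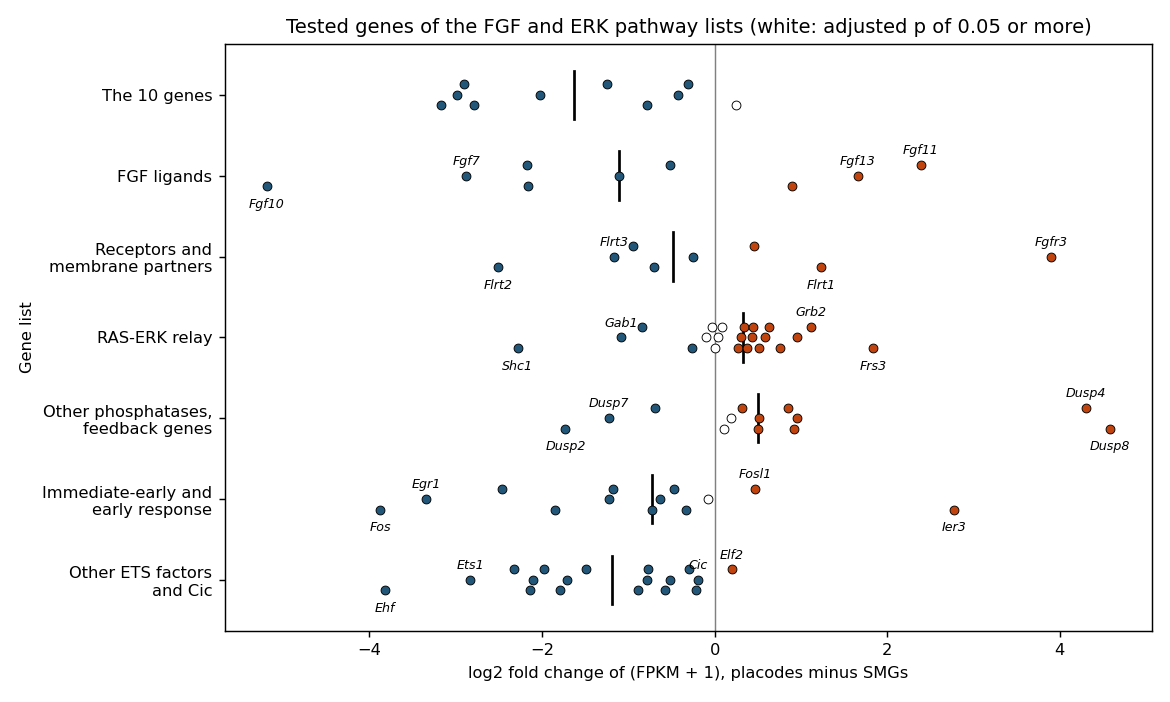
Log2 fold change (x axis, placodes minus SMGs) of every tested gene of the 10 genes and of the 6 pathway lists (y axis), with a black bar at the median of each list; red points were higher, blue points lower, and white points did not pass the test. The medians are -1.63 for the 10 genes, -1.11 for the ligand list, which includes intracellular factors, and -0.48 for the receptors. The relay list, which includes negative regulators, has 0.32, and the other phosphatases and feedback genes have 0.50. The early response genes have -0.72 and the other ETS factors -1.19.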

How the data were processed

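Total RNA of 2 samples of PSC-derived SG placodes and 2 samples of E12.5 SMGs was sequenced as paired-end reads. The authors aligned them with HISAT2, and the deposited values are FPKM per gene and sample. The version, the annotation, the strand setting and the program for FPKM are not given in the sources used here, and the submitters' processing notes name GRCm38 and GRCh38. Depth is unknown, so no counting intervals are given.

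Groups followed the sample titles. FPKM was transformed as log2(FPKM + 1), and limma 3.58.1 (R 4.3.3; lmFit and trended eBayes with a term for group, two-sided) was run on the 13193 features whose mean was 1 or more. Benjamini-Hochberg adjustment covered all of them. A feature with a mean below 1 in 1 group passed only through the other group, so the minimum fixed its direction. The procedure was tested on simulated data with a small part of the features changed. In these data 76.2% of the tested features were called, so that test does not cover this setting. The labels do not say whether the samples of a group came from separate cultures or litters, so p-values measure only the spread between these samples. Alternatives covered the pseudocount, the minimum FPKM, 4 scalings, the assembled loci, the variance model, the replicate block and each replicate left out.

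The members, gene lists and marker lists were chosen with earlier results of these data known. Named from each pathway list were the 2 highest and the 2 lowest log2 fold changes past the threshold. Coordinates are from GENCODE M21, where 22022 of 22036 Ensembl genes matched. Promoters are from RefSeq. Spry3 and protein sequences were not analysed here. Figures were drawn with Python 3.11.15.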

Additional observations from a re-analysis of the deposited data

How the results depend on the processing

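Under 16 alternatives, 8 or 9 of the 10 genes were lower in the placodes and 0 were higher, and the number lower by at least 2-fold was 6 throughout. Of the 9 calls, only that of Il17rd was lost, without SMG replicate 2 or without placode replicate 2, and its log2 fold change ranged from -0.35 to -0.26. Etv1 did not pass the test under any of the 15 alternatives that gave it a value, with log2 fold changes of 0.14 to 0.37 and adjusted p-values of 0.0593 to 0.374. It was not tested at a minimum mean FPKM of 5. Of the other pathway genes, 25 to 33 were higher (30 as reported) and 31 to 46 lower (45). Rescaling moved the median log2 fold change of all features from -0.05 to 0.01 at most.

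The labels number the samples 1 and 2 in both groups. Over the tested features, the difference between samples 1 and 2 had a correlation of -0.03 between the groups. This does not show whether samples with the same number shared a batch or date. With the replicate block, 9 genes were lower and 0 higher, and 10043 features were called in place of 10049. With 2 samples a group and FPKM only, the depth behind low values such as those of Spry4 in the placodes is unknown.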

Other observations

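Among the phosphatase genes Dusp4, Dusp6, Dusp7 and Dusp9, compared after their values were seen, Dusp6 had the highest FPKM in both SMG samples (48.3 and 50.2) and Dusp4 the highest in both placode samples (120.6 and 118.8). Dusp9 was at 8.69 and 8.30 in placodes and 7.74 and 6.88 in SMGs and did not pass the test.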
